A study of Mus musculus with 42 samples.

Results

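Neurexins and neuroligins are adhesion proteins of the synapse. Neurexins sit mainly in the presynaptic membrane and neuroligins in the postsynaptic membrane, and the pair joins across the synaptic cleft to organise transmitter release and receptor clustering. Neurexin genes are long and start at several promoters, so that short proteins of the beta type arise from a start deep inside the gene, and neuroligins are best known from neurons rather than from liver cells. Genes that a tissue does not use often lie in lamina-associated domains (LADs), long stretches of chromatin that touch the lamin network under the nuclear envelope.

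Of the 21938 protein-coding genes of the annotation, 4 were taken here by name and placed by their annotated position: the neurexin genes Nrxn2 and Nrxn3 and the neuroligin genes Nlgn1 and Nlgn2. No measured value served as a rule of choice, but the genes were named with earlier results of these data known. LADs had been called from chromatin immunoprecipitation of lamin B1 (LMNB1), a structural protein of the lamina, in the livers of 14 wild-type C57Bl/6 mice. Non-synchronized (NS) mice were killed at noon on the day before food was withdrawn, and all other mice were fasted for a day to set the liver clock and given food again from circadian time CT0. Livers were taken at CT0, CT6, CT12, CT18, CT24 and CT30, from 2 mice each, as from the NS mice. The labels call the mice female in some fields and male in the growth protocol, and their age was not given in the sources used here. The whole liver was used, so every LAD is a call over mixed cell types, and no expression value was analysed here with which to check the tissue.

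The files give each LAD as a start and an end on mm10, with no height or count, so that a gene has 3 readouts in each library: whether its annotated start lies in a LAD, the percent of its body that lies in LADs (the share), and the distance from its body to the nearest LAD. Libraries held 86 to 341 LADs that covered 335.3 to 663.0 Mb, with 4.02% to 10.4% of gene starts. LAD borders of a library lie on a grid whose step (the greatest whole kb that fits all starts on whole kb) ran from 4 to 61 kb and differed between the replicates of every time point, as in NS with 61 kb in replicate 1 and 4 kb in replicate 2. Read depth is unknown.

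Nrxn2 (ENSMUSG00000033768.17) spans chr19:6418731-6544169 on the plus strand, 125.4 kb, with 89 other gene starts within 1 Mb and a GC content of 53.7%. Nrxn3 (ENSMUSG00000066392.11) spans chr12:88722876-90334935 on the plus strand, and with 1612 kb it ranks 11 among all protein-coding genes by length, with 17 other starts within 1 Mb and 39.3% GC. Nlgn1 (ENSMUSG00000063887.13) spans chr3:25426215-26332460 on the minus strand, 906.2 kb with rank 76, with 4 other starts within 1 Mb and 37.3% GC. Nlgn2 (ENSMUSG00000051790.15) spans chr11:69823122-69837784 on the minus strand, 14.7 kb, with 112 other starts within 1 Mb and 55.4% GC. The median gene is 17.4 kb long, has 29 other starts within 1 Mb and 45.2% GC. Nrxn3 and Nlgn1 are thus long and gene-poor, and Nrxn2 and Nlgn2 lie among many genes.

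The promoters below are shown because LAD borders fell between the Nrxn3 starts and beside the Nlgn1 start, and the Nlgn2 promoter, never in a LAD, stands for contrast. RefSeq windows on GRCm38.p6, from 250 bases before to 50 bases after a start, were found for Nrxn3, Nlgn1 and Nlgn2, with 6 windows in all. They are printed 5′ to 3′ on the gene's strand with each CG dinucleotide, the pair that carries DNA methylation, in capitals. They are the first start of the Nrxn3 transcript of widest span (chr12:88794254-88794553), the internal start of the short Nrxn3 transcripts (chr12:89812233-89812532), the first start of Nlgn1 in RefSeq, at 26331909 and so inside the annotated gene (chr3:26331860-26332159), and that of Nlgn2 (chr11:69837735-69838034).
Nrxn3 first start: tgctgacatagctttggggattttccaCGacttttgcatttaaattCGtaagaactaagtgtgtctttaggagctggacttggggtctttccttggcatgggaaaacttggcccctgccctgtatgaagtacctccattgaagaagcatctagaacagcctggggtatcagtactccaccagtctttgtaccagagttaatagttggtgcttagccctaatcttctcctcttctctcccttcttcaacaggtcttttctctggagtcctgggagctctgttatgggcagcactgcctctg
Nrxn3 internal start: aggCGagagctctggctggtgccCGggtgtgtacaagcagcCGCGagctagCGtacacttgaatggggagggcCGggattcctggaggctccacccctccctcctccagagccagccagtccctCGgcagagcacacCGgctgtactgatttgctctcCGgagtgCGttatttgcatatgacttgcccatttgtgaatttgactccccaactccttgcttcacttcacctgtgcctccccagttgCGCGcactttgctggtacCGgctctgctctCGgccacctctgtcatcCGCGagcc
Nlgn1 first start: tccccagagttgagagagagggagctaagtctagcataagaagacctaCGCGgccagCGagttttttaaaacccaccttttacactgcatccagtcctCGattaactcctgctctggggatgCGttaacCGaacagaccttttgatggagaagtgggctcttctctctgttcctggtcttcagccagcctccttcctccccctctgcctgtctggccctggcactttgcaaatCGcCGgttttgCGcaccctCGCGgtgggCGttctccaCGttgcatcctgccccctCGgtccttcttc
Nlgn2 first start: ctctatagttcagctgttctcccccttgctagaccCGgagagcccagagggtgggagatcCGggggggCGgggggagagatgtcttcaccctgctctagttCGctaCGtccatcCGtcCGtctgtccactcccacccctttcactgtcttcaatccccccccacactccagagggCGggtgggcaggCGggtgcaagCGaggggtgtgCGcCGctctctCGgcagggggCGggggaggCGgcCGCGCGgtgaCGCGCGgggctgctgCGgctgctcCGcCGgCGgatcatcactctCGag

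The Nrxn3 window at the first start held 2 CG dinucleotides, fewer than most, since 10.6% of the 20150 windows of protein-coding genes held fewer. The internal Nrxn3 start had 16 and the Nlgn1 window 14, where the median window has 14, and the Nlgn2 window had 26, with 76.7% of windows below it. The E-box CACGTG, the motif that the clock factors CLOCK and BMAL1 are known to bind, reads the same on both strands and was found in 8.03% of all windows and in 0 of the 6 windows here. The related CACGTT, searched on both strands, was found in 4.69% of all windows and once in the Nlgn1 window shown. These are letter matches only. The whole window lay in a LAD in 3 of 14 libraries for the first Nrxn3 start, in 6 for the internal one, in 3 for Nlgn1 and in 0 for Nlgn2.

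Nrxn3 and Nlgn1 entered LADs in many libraries, and Nrxn2 and Nlgn2 in none. The annotated start of Nrxn3 lay in a LAD in 2 of 14 libraries and that of Nlgn1 in 3, whereas a LAD touched some base of Nrxn3 in 9 libraries and of Nlgn1 in 8. No coding transcript uses the annotated Nrxn3 start, and the coding starts of each gene lay in LADs in 3 to 6 libraries. At least 50% of the body lay in LADs in 5 libraries for Nrxn3 and in 8 for Nlgn1. Among all protein-coding genes, 16.7% had the start in a LAD in at least 1 library, 7.79% in at least 7 and 0.830% in all 14, and 8.06% touched a LAD in at least 7 libraries. Nrxn3 and Nlgn1 thus belong to the first and the last of these sets, and to neither set with the start in a LAD in at least 7 libraries. LADs touched both genes in 6 libraries, Nrxn3 alone in 3, Nlgn1 alone in 2 and neither in 3, so the same liver could hold one gene in a LAD and the other outside.

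Nrxn3, the longest of the 4, varied over the whole possible range. Its share was 100% in NS replicate 1 and 11.1% in NS replicate 2. At CT0 it was 100% and 49.8%, and at CT6 it was 0% in both mice. At CT12 it was 28.8% in replicate 1 and 69.2% in replicate 2, and at CT18 it was 78.3% and 27.5%. Only 1 mouse had Nrxn3 in a LAD at CT24, with 97.7% in replicate 1 and 0% in replicate 2, and at CT30 both had 0%. The 2 mice of a time point were both at 0% at CT6 and CT30, and at every other time point they stood far apart.

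The LADs over Nrxn3 shared the 3′ side of the gene. In all 9 libraries with a LAD the last base of the gene was inside it, and the border beyond the gene end lay 15.1 to 960.1 kb downstream. The upstream border moved over 2.38 Mb between libraries and fell inside the gene in 7 of 9, at 37.1 kb from the annotated start in CT24 replicate 1, at 349.1 kb in CT18 replicate 1 and at 497.1 kb in CT12 replicate 2. It lay at 809.1 kb in CT0 replicate 2, at 1147 kb in CT12 replicate 1, at 1169 kb in CT18 replicate 2 and at 1433 kb in NS replicate 2. In NS replicate 1 and CT0 replicate 1 the LAD began before the gene, at -943.9 and -738.9 kb from its start, and held it whole. The 9 LADs measured 0.480 to 3.05 Mb, with a median of 1.31 Mb, beside 1.82 Mb for all 2845 LADs.

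**Figure D1:**
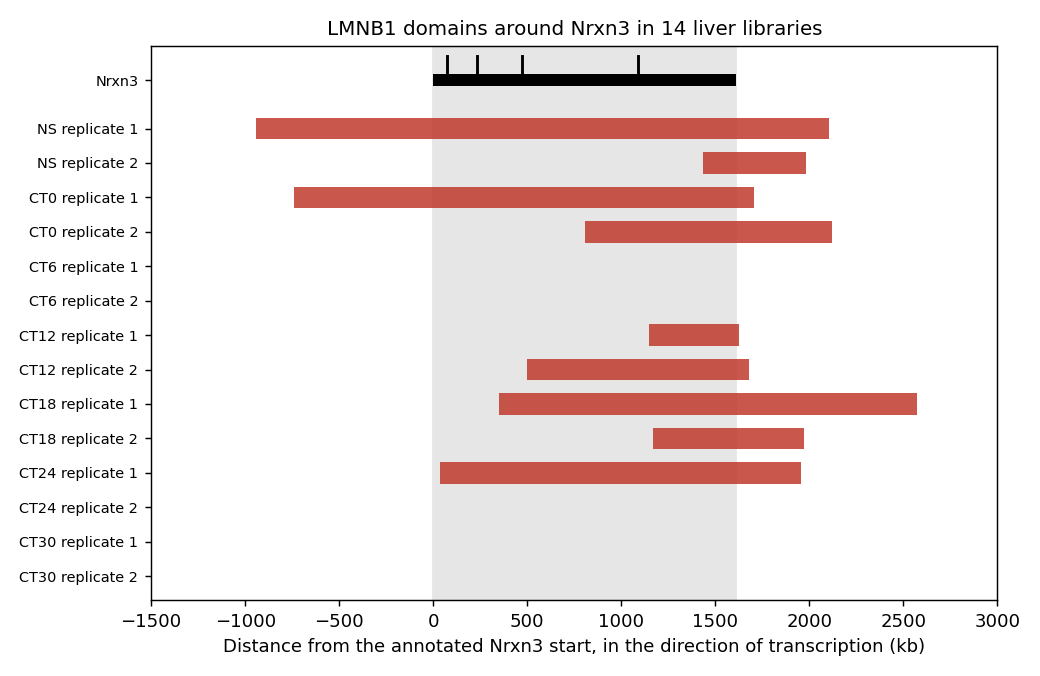
LADs around Nrxn3 in the 14 libraries, 1 row per library, against the distance in kb from the annotated start in the direction of transcription, with the gene as the black bar and shaded band and its coding start sites as ticks. All 9 LADs that touch the gene cover its 3′ end at 1612 kb, and their upstream borders spread from -943.9 to 1433 kb.

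Against the Nrxn3 transcript of widest span, Nrxn3-205 with 20 exons, 6 of these upstream borders fell in introns, namely intron 3, intron 5, intron 13, intron 14 in 2 libraries and intron 15. The border at 37.1 kb lay upstream of this transcript, so that all 20 exons were in the LAD, as in NS replicate 1 and CT0 replicate 1. The other LADs held 17 exons in CT18 replicate 1, 15 in CT12 replicate 2, 7 in CT0 replicate 2, 6 in CT12 replicate 1 and CT18 replicate 2, and 5 in NS replicate 2. The coding starts therefore differed: the starts at positions 88794504 (Nrxn3-205) and 88953399 lay in a LAD in 3 libraries each, the next at 89193106 in 4, and the internal start of the short transcripts at 89812483 in 6 of 14. The annotated gene start, which no coding transcript uses, lies 71.6 kb before the first of them. The internal start, the last of these along the gene, was the one most often in a LAD. Since each LAD covered the 3′ end, a later start could not be in a LAD less often than an earlier one.

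Nlgn1 had most of its body in a LAD or none of it, with shares of 72.4% to 100% in 8 libraries and 0% in 6. Its share in NS was 0% in replicate 1 and 99.1% in replicate 2, and at CT0 it was 0% and 92.0%. At CT6 it was 0% in replicate 1 and 77.1% in replicate 2, and at CT12 it was 97.5% and 100%. At CT18 it was 0% and 100%, at CT24 it was 100% and 72.4%, and at CT30 it was 0% in both mice. Both mice had the LAD at CT12 and CT24 and neither had it at CT30, and at the other 4 time points replicate 2 had it and replicate 1 did not.

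The LADs over Nlgn1 were more alike than those over Nrxn3. Their downstream border lay 131.2 to 622.2 kb beyond the gene end in all 8 libraries and moved over 0.491 Mb, and the upstream border moved over 0.840 Mb. The upstream border fell inside the gene in 5 of 8 libraries, in intron 1 of the transcript Nlgn1-205 at 8.46 kb from the start in NS replicate 2, 22.5 kb in CT12 replicate 1 and 72.5 kb in CT0 replicate 2, and in intron 3 at 207.5 kb in CT6 replicate 2 and 250.5 kb in CT24 replicate 2. In the other 3 it lay before the start, at -7.54 kb in CT12 replicate 2, -15.5 kb in CT24 replicate 1 and -589.5 kb in CT18 replicate 2. Of the 8 exons of Nlgn1-205, 5 to 8 were in the LAD. The border at -7.54 kb lay nearer to the start than the 10 kb grid step of its library. The start of Nlgn1-205 at 26332460 lay in a LAD in 3 libraries, and the later starts at 26153307 and 26133734 in 6 each.

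**Figure D2:**
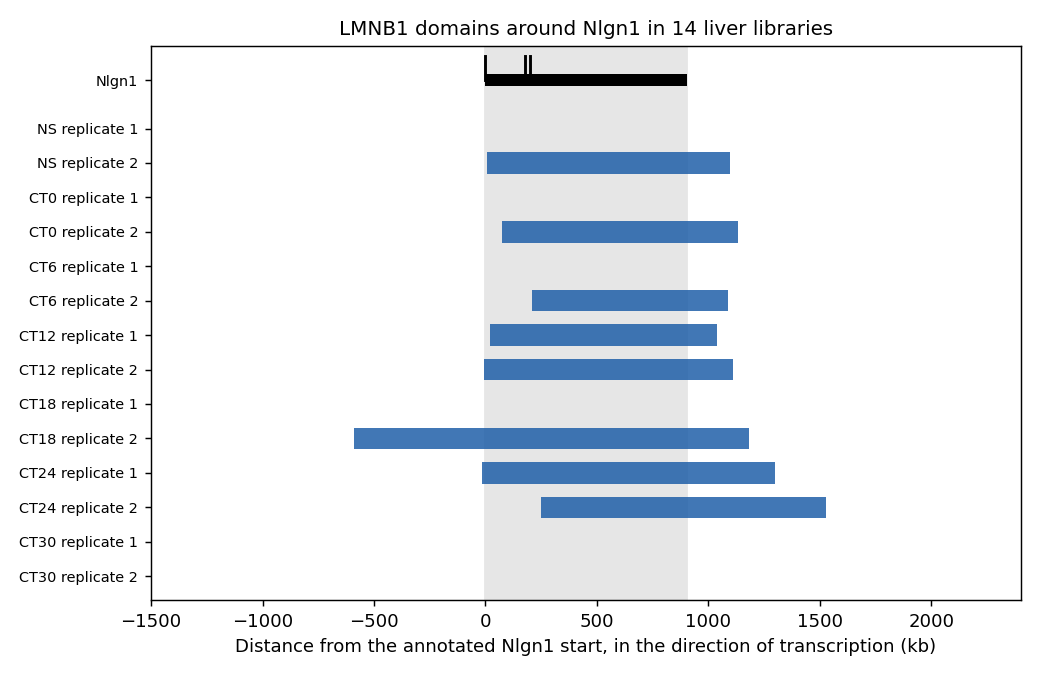
LADs around Nlgn1 in the 14 libraries, drawn as for Nrxn3, against the distance in kb from the annotated start in the direction of transcription. The 8 LADs cover the 3′ end at 906.2 kb and begin within -589.5 to 250.5 kb of the start, and 6 libraries have no LAD in the window.

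In both genes the 5′ end was the part left out of a partial LAD. A LAD held the 3′ end alone in 7 libraries for Nrxn3 and in 5 for Nlgn1, both ends in 2 and 3, and the 5′ end alone in 0. Of the other genes of at least 500 kb, 123 touched a LAD in some library, and over their 993 pairs of gene and library the 5′ end alone was in the LAD in 288, the 3′ end alone in 138, both ends in 526 and neither in 41. The 3′ end alone was more frequent than the 5′ end alone in 40 of these genes and less frequent in 58, so the order seen in Nrxn3 and Nlgn1 was the less common one. This count was chosen after the borders of Nrxn3 and Nlgn1 had been seen, and the difference was not tested. With members included, 12 genes had the 3′ end alone in at least 5 libraries and the 5′ end alone in 0.

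Nrxn2 had no base in a LAD in any of the 14 libraries, and each of its 8 coding start sites was outside LADs in all of them. Its nearest LAD always lay at higher coordinates. The distance was 12.1 and 2.74 Mb in NS, 6.29 and 2.64 Mb at CT0, and 6.30 and 2.70 Mb at CT6. It was 2.74 and 2.61 Mb at CT12, 26.6 and 2.60 Mb at CT18, 6.31 Mb in both mice at CT24, and 43.2 and 6.38 Mb at CT30. The values thus fell between 2.60 and 2.74 Mb, between 6.29 and 6.38 Mb, or, in 3 libraries, farther away.

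Nlgn2 was likewise outside LADs in all 14 libraries. Its distance to the nearest LAD was 21.2 and 3.56 Mb in NS, 2.38 and 3.60 Mb at CT0, and 20.8 and 3.20 Mb at CT6. At CT12 it was 3.49 and 3.08 Mb, at CT18 20.7 and 1.32 Mb, at CT24 2.97 and 21.5 Mb, and at CT30 20.9 Mb in both mice. The smallest distance for Nlgn2, 1.32 Mb in CT18 replicate 2, came from the library with the widest LAD coverage, 663.0 Mb. Around Nlgn2, 112 protein-coding genes lie within 1 Mb and 91 around Nrxn2, and the starts of 0 of them were in a LAD in any library. The neighbours of Nlgn2 include Per1, a core clock gene 713.2 kb away, and Dlg4, which encodes the postsynaptic scaffold PSD-95 that neuroligins bind, 179.2 kb away. Both were chosen for what they are known to do, after their values were seen.

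**Figure D3:**
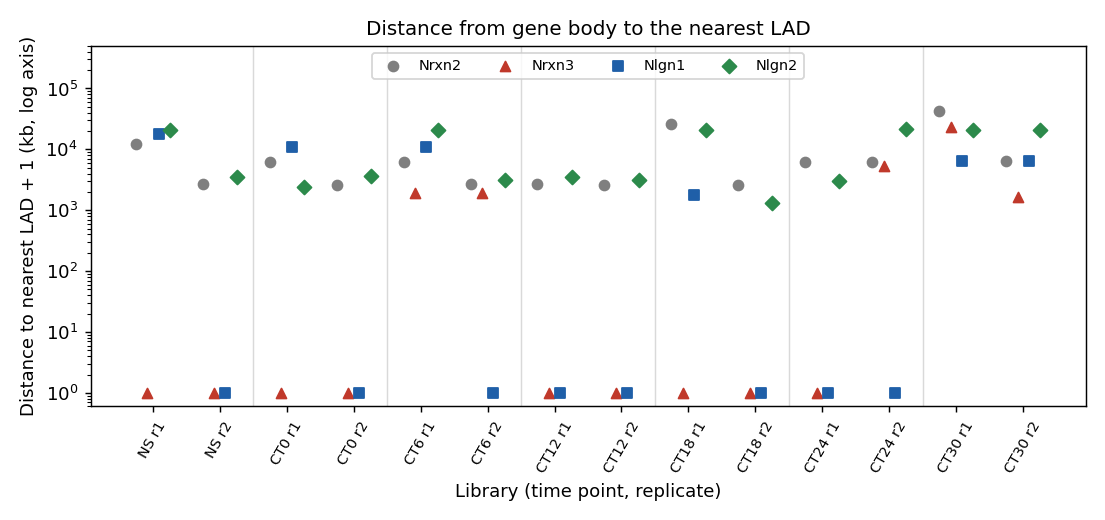
Distance from gene body to the nearest LAD, in kb plus 1 on a log axis, for the 4 genes in each library, where a value of 1 stands for a gene that a LAD touches. Nrxn2 and Nlgn2 sit at 1.32 Mb or farther in every library, and Nrxn3 and Nlgn1 drop to 0 kb in 9 and 8 libraries.

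Whether the genes' position followed circadian time was asked over the 6 CTs with 2 mice each, by the F ratio of the values between and within time points. Its p is exact, from every way in which the 12 livers could be dealt into 6 pairs (a permutation test). Neither share differed beyond the spread between mice: for Nrxn3 F was 1.39 with exact permutation p = 0.359, and for Nlgn1 F was 1.20 with exact permutation p = 0.394, both with an adjusted p of 1.00. The share of Nrxn2 and Nlgn2 was 0% throughout and has no test. Over the 3306 genes whose share varied, 46 had an exact permutation p below 0.05, which is 1.39%, and 0 genes, or 0%, had an adjusted p below 0.05. The smallest exact permutation p of any share was 0.00433, so the count of 0 after adjustment over 3306 genes says little. The mean share of Nrxn3 (± SD, n = 2) was 74.9% ± 35.5 at CT0 and 0% at CT6. It was 49.0% ± 28.5, 52.9% ± 36.0 and 48.8% ± 69.1 at the next 3 time points and 0% at CT30. For Nlgn1 the means were 46.0% ± 65.1, 38.6% ± 54.5, 98.8% ± 1.75, 50.0% ± 70.7, 86.2% ± 19.5 and 0% from CT0 to CT30. Nlgn1 was thus highest at CT12 and Nrxn3 at CT0, and CT30 was at 0% for both genes.

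**Figure D4:**
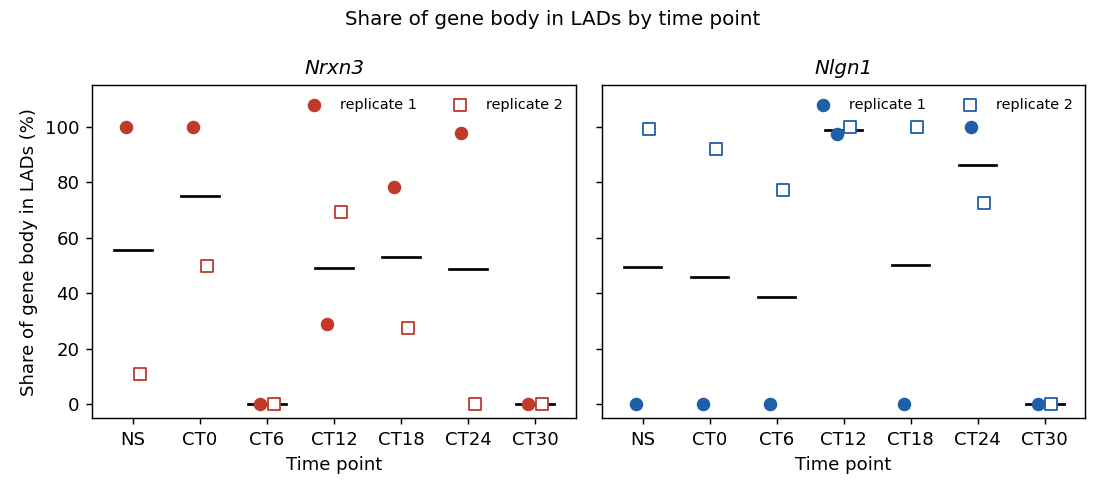
Share of the gene body in LADs, in percent, of Nrxn3 and Nlgn1 by time point, with replicate 1 as filled circles, replicate 2 as open squares and the mean of the 2 mice as a line. The 2 mice of a time point often lie at opposite ends of the axis, as for Nlgn1 at CT18 with 0% and 100%.

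The distance to the nearest LAD, compared as log2 of kb plus 1, did not differ between CTs beyond the spread between mice either. F was 4.82 for Nrxn3 with exact permutation p = 0.121, 1.15 for Nlgn1 with exact permutation p = 0.515, 0.950 for Nrxn2 with exact permutation p = 0.439 and 0.824 for Nlgn2 with exact permutation p = 0.650. The adjusted p lay between 0.922 and 0.946. Over 20370 genes, 1109 had an exact permutation p below 0.05, which is 5.44%, and 0 genes, or 0%, had an adjusted p below 0.05. The Nrxn3 value rested on CT24, where 1 mouse was at 0 kb and the other at 5335 kb: without CT24 replicate 1 the exact permutation p was 0.0130 and without CT24 replicate 2 it was 0.0303, with adjusted p of 0.867 and 0.943.

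Where only the bases covered in both mice of a time point were kept, as the study did for its own comparisons, Nrxn3 retained 11.1% in NS, 49.8% at CT0, 28.8% at CT12 and 27.5% at CT18, and 0% at CT6, CT24 and CT30. Nlgn1 retained 97.5% at CT12 and 72.4% at CT24 and 0% at every other time point. The annotated start of neither gene was in such an intersect at any time point. From NS to CT0, the comparison that spans the fast, the mean share of Nrxn3 went from 55.5% to 74.9%, a difference of 19.4 points, and that of Nlgn1 from 49.5% to 46.0%, a difference of -3.53 points. Both had an exact two-sided permutation p of 1.00, and 2 mice against 2 cannot give less than 0.333. Nrxn2 and Nlgn2 were at 0% in all 4 livers.

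The grid step of a library moved with the Nlgn1 calls. The 8 libraries with steps of 4 to 18 kb all had a LAD over Nlgn1, with shares from 72.4% to 100%, and the 6 with steps of 19 to 61 kb had none. This cut was placed where the Nlgn1 calls change. Over all protein-coding genes, the median percent of starts in LADs was 8.99 in the 7 libraries with the smallest steps. It was 6.16 in the 7 with the largest. Nrxn3 showed another picture: with the libraries split into the 7 smallest and the 7 largest steps, it was touched in 6 of 7 and 3 of 7, and its annotated start was in a LAD in 0 and 2. Its only 2 complete shares of 100% came from the 47 and 61 kb steps, where Nlgn1 was at 0%. The number in the deposited library name also moved with the calls, as LADs touched Nlgn1 in 1 of 6 libraries numbered 1, in 4 of 5 numbered 2 and in 3 of 3 numbered 3, and Nrxn3 in 4 of 6, 2 of 5 and 3 of 3. The part of the step in either pattern was not tested. In the F test on residuals after a linear fit on log2 step, permutation p was 0.431 for the Nrxn3 share and 0.248 for the Nlgn1 share. This p is approximate, since residuals of a fit are not freely exchangeable. Of the 3306 genes tested, 17.9% had a permutation p below 0.05 after the fit, against 1.39% without it.

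**Figure D5:**
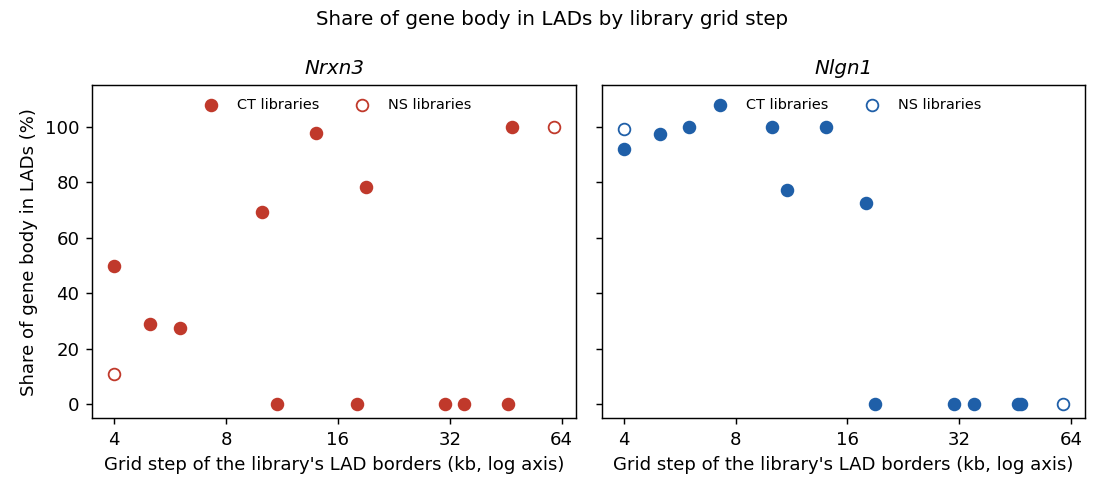
Share of the gene body in LADs, in percent, of Nrxn3 and Nlgn1 against the grid step of each library in kb on a log axis, with CT libraries filled and NS libraries open. Nlgn1 lies between 72.4% and 100% up to 18 kb and at 0% from 19 kb, and the 5 zero values of Nrxn3 lie at steps of 11 to 46 kb, with values above 0 on both sides of them.

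Genes around Nrxn3 and Nlgn1 showed how far the LADs reached. Of 19 protein-coding genes within 1 Mb of Nrxn3, 17 had the start in a LAD in some library, in most cases short genes without a descriptive name upstream of Nrxn3 that were covered in NS replicate 1 and, nearer to Nrxn3, also in CT0 replicate 1. Adck1, which encodes a mitochondrial kinase-like protein, was in a LAD in 2 libraries, and Dio2, which encodes the enzyme that activates thyroid hormone, 389.6 kb downstream, in 3. Cep128, a centriole gene, was touched in 1 library with its start outside. Of the 5 neighbours of Nlgn1, Naaladl2 had its start in a LAD in 2 libraries and Spata16, a spermatogenesis gene, in 1, and Ect2, Nceh1 and Tnfsf10 in 0. The LADs over Nlgn1 thus took in few other genes.

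The genes on other chromosomes nearest in share were picked by the smallest mean absolute difference over the 14 libraries. For Nlgn1 they were Iqcm on chromosome 8, which differed by 2.47 points on average, and Tinag on chromosome 9 and the odorant receptor gene Olfr820 on chromosome 10, which each differed by 4.42 points. All 3 touched a LAD in the same 8 libraries as Nlgn1, and the points share their library, with its grid step. For Nrxn3 the nearest were Herc2, Cyfip1 and Nipa1, which lie together on chromosome 7, at 15.0 points each. They touched a LAD in 4 libraries, against 9 for Nrxn3, and the call of touching or not was the same in 9 of 14.

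Nrxn3 and Nlgn1 belong to a length class that met LADs more often than the others. Of the 230 genes of at least 500 kb, 47.0% had the start in a LAD in some library and 54.3% were touched by one. In the class of 100 to under 500 kb, which holds Nrxn2, these starts were 15.7% of 2262 genes, and under 100 kb, which holds Nlgn2, 16.4% of 19446. Per library, the touched percent of the longest class ran from 17 to 44.3.

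Other genes of the synapse were taken as 3 lists, 60 genes in all: proteins that bind neurexins (with Mdga1 and Mdga2, which bind neuroligins), intracellular scaffold and vesicle proteins, and other synaptic adhesion proteins. Each gene was found in the annotation. In 24 of 60 the start was in a LAD in at least 1 library, in 14 in at least 7 and in 7 in all 14, beside 16.7%, 7.79% and 0.830% of all protein-coding genes. The other adhesion genes supplied 11 of the 24, 8 of the 14 and 5 of the 7. The median listed gene is 88.1 kb long and the median of all genes 17.4 kb, and the lists were not matched for length. Of the 12 listed genes of at least 500 kb, 11 touched a LAD in some library. In the neurexin-binding list the start was in a LAD in some library for 8 of 18 genes. It was in a LAD in at least 7 libraries for 5 genes and in all 14 for 2. Among the 18 intracellular scaffold and vesicle genes, of median length 198.9 kb, these counts were 5, 1 and 0.

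In the neurexin-binding list, Lrrtm4, which encodes a postsynaptic leucine-rich repeat ligand of neurexins, and Cbln2, which encodes a secreted bridge between neurexins and glutamate receptors of the delta type, had the start in a LAD in all 14 libraries. Their mean shares were 85.9% and 100%. Among other adhesion genes Ptprd, a receptor phosphatase of the presynaptic side, Lrrc4c, a netrin-G ligand, and Slitrk5 and Slitrk6, which bind such phosphatases, were in LADs in all 14, with mean shares of 56.6% for Ptprd and 100% for the other 3. Slitrk1, named beyond the limit of 6 genes, was in a LAD in all 14 too. The annotated start of the 4 neurexin and neuroligin genes was in a LAD in at most 3 libraries, and their coding starts in at most 6. The end that met the LAD differed among 5 long genes of the lists, picked for this after their values were seen: Magi2, a scaffold that binds neuroligins, had the 5′ end alone in a LAD in 8 libraries, Syt1, the calcium sensor of synaptic vesicles, in 3, and Ptprd in 10. Ntrk3, a neurotrophin receptor gene, had the 3′ end alone in 6 libraries, the order of Nrxn3 and Nlgn1. Dlg2, a postsynaptic scaffold gene, met a LAD in 7 libraries, in 5 of them with neither end inside.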

How the data were processed

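LADs of 14 LMNB1 ChIP-seq libraries were analysed, from 2 livers at each of 7 time points. The authors mapped reads to mm10 with Bowtie2 2.25.0 as given in the submitters' processing notes, removed duplicates with Picard, down-sampled ChIP and input per chromosome to the same depth, and called LADs per liver with EDD, its bin size and gap penalty set per library from repeated runs. The deposited files hold the start and end of each LAD, with no score, count or signal, so no interval for counting error could be given, and precision comes from 2 mice per time point. The 7 inputs and 21 RNA-seq samples were not analysed here.

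Genes were the 21938 protein-coding genes of GENCODE vM21 (GRCm38.p6, the same build; 0 LADs ended beyond a chromosome). Members and gene lists were chosen with earlier results of these data known. Per gene and library, the start in a LAD, the share of the body and the distance to the nearest LAD (0 where they overlap) were computed in Python 3.11.15 with NumPy 2.4.6, SciPy 1.17.1 and Numba 0.67.0. CTs were compared by F ratio over all divisions of the 12 CT libraries into pairs, with Benjamini-Hochberg adjustment over all genes tested: those whose share varied, or, for log2 distance in kb with a pseudocount of 1, those on chromosomes with a LAD in every library. The test was checked on simulated data. NS and CT0 were compared by an exact permutation test. Named genes were the members, the descriptively named protein-coding genes within 1 Mb of Nrxn3 and Nlgn1 (the members with a share above 0), the 3 genes on other chromosomes closest in share to each of these, and up to 6 listed genes with the start in a LAD in the most libraries. Per1, Dlg4, Slitrk1, Magi2, Syt1, Ntrk3 and Dlg2 fall outside this rule and were chosen after their values were seen. Alternatives were LADs of at least 1 Mb, joining over gaps of up to 100 kb, other gene spans and distances, NS as a further time point, a fit on grid step, the replicate number as a block, and each library left out.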

Additional observations from a re-analysis of the deposited data

How the results depend on the processing

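Exact permutation p values of the members' shares and distances across CTs stayed above 0.05 in every alternative run except for the Nrxn3 distance, which was below 0.05 without CT24 replicate 1 (0.0130) or without CT24 replicate 2 (0.0303), at most 0.131 with another library left out (CT30 replicate 1), 0.303 in untransformed kb, 0.362 from the start site, 0.367 after the grid step fit and 0.498 with LADs of at least 1 Mb. With CT24 mice at 0 and 5335 kb, the spread within that time point falls when either is left out. After the grid step fit the permutation p is approximate rather than exact, since residuals were permuted. With any one CT library left out, exact permutation p ranged from 0.104 to 0.521 for the Nrxn3 share and from 0.209 to 0.612 for the Nlgn1 share. The CT0 minus NS difference ranged from 0 to 38.7 points for Nrxn3 and from -7.06 to 0 for Nlgn1 with 1 replicate left out, which leaves no test. Counting any base of the gene body in place of the start gave 9 libraries for Nrxn3 and 8 for Nlgn1, and at least 50% of the body gave 5 and 8. Only the counts of Nrxn3 and Nlgn1 moved, and those of Nrxn2 and Nlgn2 stayed at 0. Joining LADs over gaps changed no value of the 4 genes.

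The number of genes with an exact permutation p below 0.05 for the share, 46 as reported, was 25 with LADs of at least 1 Mb, 26 with NS as a further time point and 593 after a fit on log2 grid step, and ranged from 40 to 134 with a library left out, more than 1.5 times the reported count without either mouse of CT0, CT6 or CT18, CT12 replicate 1 or CT24 replicate 2. For the distance, 1109 as reported, it was 2004 with LADs of at least 1 Mb and 1932 after the fit, and ranged from 639 without CT12 replicate 1 to 2384 without CT0 replicate 2, with counts also moved by over 1.5 times without CT12 replicate 2 or CT30 replicate 1. Counts after the fit rest on its approximate p, and were 17.9% of the genes tested for the share and 9.48% for the distance. The cause was not tested. In every one of these fits 0 genes had an adjusted p below 0.05.

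The labels name nothing that same-numbered livers share beyond the number. Replicate 1 had the larger grid step in NS, CT0, CT6 and CT18 and the smaller one at CT12, CT24 and CT30. Over 3306 genes the deviations of same-numbered livers correlated by -0.169 to 0.326 between CTs, above 0.1 in 3 of 15 pairs. With the replicate number as a block, the share count was 12 and no member passed 0.05 (Nrxn3 share exact permutation p = 0.308, Nlgn1 share 0.467). Nrxn2 and Nlgn2 shares, constant at 0, have no test. A LAD is listed or not, with no signal, so a gene just under the calling threshold of a library cannot be told from one far from the lamina.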
